A study of Homo sapiens with 3 samples.

Results

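The P2X receptors are a family of 7 genes, P2RX1 to P2RX7, and the peaks of SOX4 and STAT6 at these genes were examined in Hep3B cells. Hep3B is an established human hepatocellular carcinoma cell line. All 7 members were found by symbol among 20037 protein-coding genes of the nuclear chromosomes, and a peak was assigned to a member when it overlapped the gene or the 1000 bp on either side. The series held 3 libraries, one each made with an antibody against SOX4, an antibody against STAT6 and non-specific IgG. No treatment and no genetic change was named for these cells, and the lists held no measure of RNA, so that the cell type could not be checked against its markers.

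Of the 7 members, P2RX2, P2RX3 and P2RX5 held peaks of both lists, and P2RX1, P2RX4, P2RX6 and P2RX7 held none of either. The family took 10 peaks out of 4513 in the SOX4 list and 13 out of 1078 in the STAT6 list. With 1 library per antibody, both called against the same IgG library, the values are given without a replicate check or a test. The read number behind each list is unknown, and a gene without a peak is one where nothing passed the authors' threshold, which is not evidence that the factor was absent.

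P2X receptors are cation channels in the cell membrane that open when extracellular ATP binds. They assemble as trimers, either of one kind of subunit or of a mixture, and let sodium and calcium into the cell. P2X2 and P2X3 are known from sensory neurons, where they form joint channels. P2X1 is known from platelets and smooth muscle, P2X4 from microglia and many other cells, and P2X7 from macrophages, in which it responds to high ATP. P2X6 forms channels mainly together with other subunits. SOX4 and STAT6 are transcription factors, the former with an HMG box that binds DNA and the latter activated by interleukin-4 and interleukin-13.

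One start site of a member lay under peaks and could be read as sequence. The RefSeq promoter table of GRCh38.p14 held 3 of the 7 members, P2RX3, P2RX4 and P2RX7, each with 250 bases before to 50 after the start. For P2RX3 the stretch chr11:57338102-57338401 on the + strand is shown, since the first SOX4 peak of the gene covered all 300 bases of it. Capitals mark the 202 bases that also lay in the first STAT6 peak.
P2RX3: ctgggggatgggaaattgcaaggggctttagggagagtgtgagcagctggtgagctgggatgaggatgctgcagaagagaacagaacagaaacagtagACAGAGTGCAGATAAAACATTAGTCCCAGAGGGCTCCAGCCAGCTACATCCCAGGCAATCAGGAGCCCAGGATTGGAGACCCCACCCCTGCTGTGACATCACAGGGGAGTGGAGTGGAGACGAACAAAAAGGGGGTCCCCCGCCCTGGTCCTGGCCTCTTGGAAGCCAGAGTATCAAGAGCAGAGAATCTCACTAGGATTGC
For P2RX7 the stretch chr12:121132626-121132925 on the + strand is shown as a promoter without a peak, with a match to a short SOX core in capitals.
P2RX7: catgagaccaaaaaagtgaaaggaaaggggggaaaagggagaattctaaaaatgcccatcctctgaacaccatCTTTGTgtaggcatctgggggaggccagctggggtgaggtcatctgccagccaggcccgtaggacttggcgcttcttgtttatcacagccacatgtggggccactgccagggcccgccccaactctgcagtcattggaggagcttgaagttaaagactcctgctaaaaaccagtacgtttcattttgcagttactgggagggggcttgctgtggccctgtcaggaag

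The promoter under the peaks held no match to the motifs searched. The SOX core, searched as ACAAAG or ACAATG on both strands, occurred 0 times in the P2RX3 stretch, 0 times in that of P2RX4 and once in that of P2RX7, on the reverse strand at -177 to -172 from the start. Of all 35116 promoters in the table, 24.5% held this core. The longer core AACAAAG or AACAATG occurred in none of the 3 stretches, that of P2RX7 included, and in 8.22% of all promoters. A STAT6 site, searched as TTCNNNNGAA, which is the same on both strands, occurred in none of the 3 stretches and in 6.44% of all promoters. The same held for TTCNNNGAA, the spacing bound by other STAT proteins, which 7.66% of all promoters held. These searches cover 300 bases each and say nothing of the remaining bases of a peak. The promoters also differed in base composition, as P2RX3 had 55.3% G and C with 2 CpG steps, P2RX7 53.3% with 4 and P2RX4 76.0% with 33, against a median of 58.7% with 14 in the table.

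To set the family against other genes, the share of all protein-coding genes holding a peak was counted under the same rule. A SOX4 peak was held by 6.35% of them, a STAT6 peak by 1.08% and peaks of both lists by 1.03%. In the P2X family 3 of 7 genes held both, and no member held a peak of one list alone. The family was chosen with earlier results of these data known, so its share beside 1.03% does not measure enrichment. At least 4 SOX4 and 5 STAT6 peaks, a bound set after seeing the values of P2RX3 and P2RX5, were held by 0.2% of all protein-coding genes. Members with and without peaks overlapped in length. P2RX5, with 50609 bp, and P2RX3, with 36447 bp, held most of the peaks, and P2RX2, with 3613 bp the shortest, held 1 of each list. P2RX7, with 55157 bp the longest, held none, nor did P2RX4 with 23978 bp, P2RX1 with 19874 bp and P2RX6 with 18210 bp. Whether length bears on the number of peaks was not tested.

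P2RX2 (gene ID 22953) encodes a subunit of the ATP-gated channels of sensory neurons and the inner ear, and variants of it are known in hereditary hearing loss. The gene lies on chromosome 12 from 132618776 to 132622388. Its only SOX4 peak ran from 132618083 to 132623085 with the summit at 132619995. The fold enrichment over IgG, the authors' ratio of signal in the antibody library to that in IgG, was 212 and the −log10 q was 2305. This placed the peak at rank 6 of 4513. The only STAT6 peak ran from 132618551 to 132622588 with the summit at 132621768, a fold enrichment of 15.7 and a −log10 q of 49.9, rank 90 of 1078. Both peaks covered the whole of P2RX2. Among the 206 protein-coding genes with peaks of both lists, 26 were covered whole by SOX4 peaks and 9 by STAT6 peaks. The summits of P2RX2 were 1773 bp apart, with that of SOX4 nearer to the lower gene end and that of STAT6 nearer to the upper one.

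P2RX3 (gene ID 5024) encodes the subunit that carries ATP signals in pain and cough fibres. It lies on the + strand of chromosome 11 from 57335950 to 57372396, and held 4 SOX4 and 7 STAT6 peaks, the most STAT6 peaks of the family. The start site of the promoter table, 57338352, lies 2402 bp inside the outermost record of the gene. The first SOX4 peak (57337633 to 57339391) had its summit at 57338430, which is 78 bp past this start, and a fold enrichment of 102, rank 276. The first STAT6 peak, from 57338200 to 57338867, had its summit at 57338514, which is 162 bp past the start, and a fold enrichment of 12.96, rank 188. No peak reached the lower end of the outermost record.

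Further into P2RX3 the second SOX4 peak (57339835 to 57341376) showed the lowest fold enrichment of the family, 56.7, rank 557. It held the narrowest STAT6 peak of the family, 375 bp wide from 57340430 to 57340804, with a fold enrichment of 4.36, rank 799. Thus the weakest sites of both lists were the same site. The third SOX4 peak was enriched 118-fold, rank 187, over 57345902 to 57351647. It held 3 STAT6 peaks, from 57346350 to 57347761, from 57347988 to 57348884 and from 57349591 to 57351212, with fold enrichments of 8.84, 8.85 and 11.7. The SOX4 summit at 57350752 lay 24 bp from the summit of the last of these.

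The fourth SOX4 peak spanned the 3′ end of P2RX3, from 57367350 to 57373076, with a fold enrichment of 172, rank 27. It held a STAT6 peak from 57368028 to 57368576 with a fold enrichment of 9.49 and one from 57369184 to 57372597 with 20.2, rank 19. The latter was the highest STAT6 peak of the family. The highest peaks of P2RX3 in both lists thus lay at the far end of the gene from its start. Between the third and the fourth SOX4 peak 15702 bp held no SOX4 peak, and 16815 bp held no STAT6 peak between the fifth and the sixth.

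P2RX5 (gene ID 5026) encodes a subunit known from immune cells and muscle, of which most people carry a splice form with little channel function. The gene lies on chromosome 17 from 3673227 to 3723835 and held 5 peaks of each list, matched one to one. The first SOX4 peak spanned the lower gene end, from 3672514 to 3674530, with a fold enrichment of 113. The second ran from 3678856 to 3680432 with 94.8 and the third from 3681174 to 3682704 with 62.5. The fourth was the widest and highest of P2RX5, from 3687512 to 3692497 with a fold enrichment of 135, rank 124. The fifth ran from 3695152 to 3696923 with 98.3.

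The STAT6 peaks of P2RX5 followed the same order of sites, with the fourth highest and the third lowest. From the lower to the upper gene end they ran from 3672942 to 3674075 with a fold enrichment of 11.1, from 3679192 to 3679949 with 9.49 and from 3681601 to 3682203 with 7.51. The fourth ran from 3688005 to 3691986 with 14.5 and the fifth from 3695666 to 3696377 with 11.4. The lists differed in the order of the first and the fifth site, the former being higher for SOX4 and the latter for STAT6. The second STAT6 peak of P2RX5 and the sixth of P2RX3 were given identical values, a fold enrichment of 9.49 and a −log10 q of 19.3, which 9 STAT6 peaks had in all.

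All peaks of P2RX5 lay in the part of the gene with the lower coordinates. Past the fifth SOX4 peak, 26912 bp up to the end of the gene held no peak. The border lay near the end of another annotation. The record of the readthrough transcript P2RX5-TAX1BP3 runs from 3662893 to 3696404. Its upper end lay inside the fifth SOX4 peak, which ran 519 bp past it, and the fifth STAT6 peak stopped 27 bp short. Up to that position SOX4 peaks covered 46.0% of P2RX5 and STAT6 peaks 29.8%, and beyond it 1.89% and 0%. The position was chosen after seeing the peaks, so this contrast follows from the choice. The part without peaks is overlapped by ITGAE, an integrin gene, which also held no peak. Of the readthrough partner TAX1BP3, no base was covered. Reads of P2RX5 and of P2RX5-TAX1BP3 cannot be told apart by position where the records overlap.

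**Figure D1:**
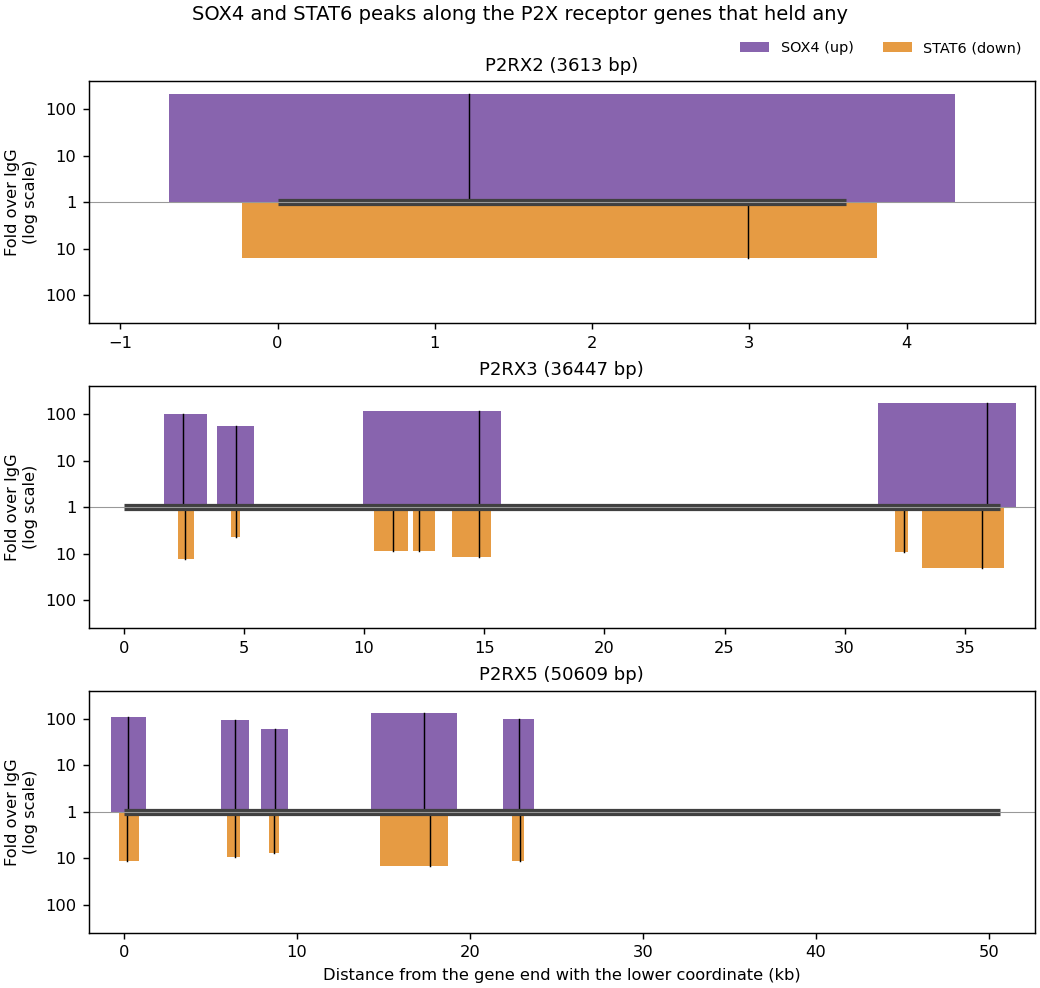
Peaks along P2RX2, P2RX3 and P2RX5, with the distance from the lower gene end in kb on the x axis and the fold enrichment over IgG on a log scale on the y axis, SOX4 upward and STAT6 downward. The width of a box is the width of the peak, the black line its summit and the grey bar the gene. Each STAT6 box lies below a SOX4 box, and the last 26912 bp of P2RX5 are empty.

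The pairing of the lists was complete at these genes. All 10 SOX4 peaks overlapped a STAT6 peak and all 13 STAT6 peaks overlapped a SOX4 peak, against 14.2% and 78.7% of the whole lists. The 14.2% is the share of a list with a median fold enrichment of 5.88, while its shared peaks had a median of 95.5. By gene, 216 protein-coding genes held a STAT6 peak, 1272 a SOX4 peak and 206 peaks of both lists. This count does not require the peaks to overlap, and complete pairing was not counted by gene. In addition, each of the 13 STAT6 peaks lay wholly inside its SOX4 peak, as did 97.2% of the 850 overlapping pairs of the lists. The distance between summits ranged from 6 bp, at the second site of P2RX5, to 3595 bp, at the third SOX4 peak of P2RX3. Its median was 84 bp in the family and 73 bp over all pairs. Summits lay within 200 bp in 8 of the 13 pairs, and 62.7% of all pairs did so. The pairs farther apart were P2RX2, the fourth site of P2RX5 and 3 pairs of P2RX3 in which a SOX4 peak held several STAT6 peaks.

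Where a SOX4 peak held a single STAT6 peak, the former extended past the latter by a similar length on each side. In the 8 such pairs the SOX4 peak began 336 to 595 bp before the STAT6 peak and ended 455 to 572 bp after it. The medians were 480.5 bp and 506 bp, beside 516 bp and 510 bp in the 503 pairs of this kind in the lists. The difference in width between the lists at these genes was thus a border of similar length around narrow and wide sites alike. At P2RX2 the STAT6 peak was 4038 bp wide and the SOX4 peak 5003 bp, and at the third site of P2RX5 the widths were 603 bp and 1531 bp.

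**Figure D2:**
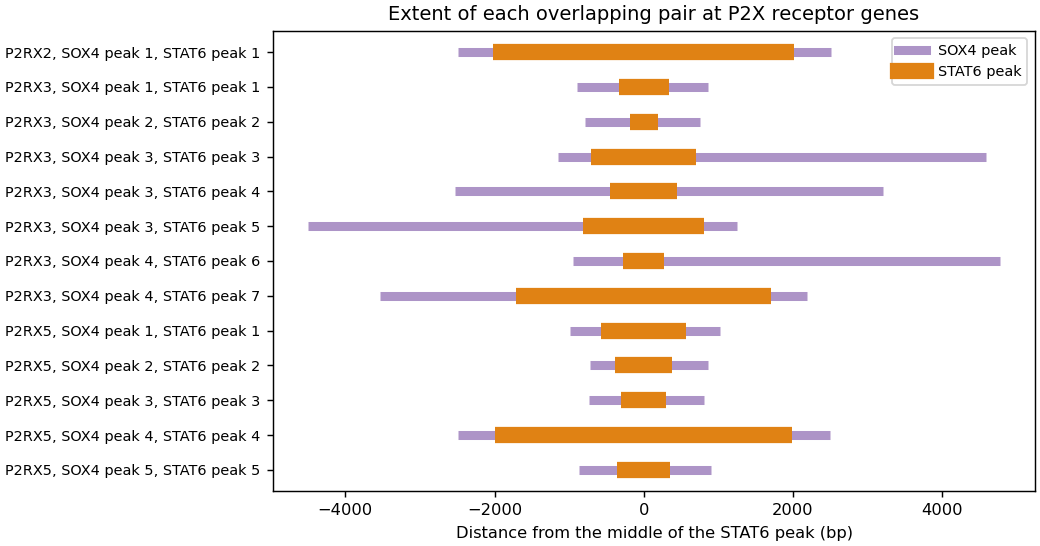
Extent of the 13 overlapping pairs, one row each, with the distance from the middle of the STAT6 peak in bp on the x axis. The violet bar is the SOX4 peak and the orange bar the STAT6 peak inside it. In the 8 pairs with a single STAT6 peak the violet borders are 336 to 595 bp long, and the longer ones belong to the third and the fourth SOX4 peak of P2RX3, which hold several STAT6 peaks.

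Where outer peaks spanned an end of a member gene, they reached 680 to 713 bp past it for SOX4 and 200 to 285 bp for STAT6. Neither list spanned the lower end of P2RX3 or the upper end of P2RX5. The listed start of P2RX3 and the end of the P2RX5-TAX1BP3 record were taken instead, after seeing the peaks. The SOX4 peak of P2RX2 reached 693 bp below the gene and 697 bp above it. At the upper end of P2RX3 the reach was 680 bp and at the lower end of P2RX5 it was 713 bp. Before the listed start of P2RX3 it was 719 bp, and past the end of the P2RX5-TAX1BP3 record it was 519 bp. For STAT6 the reach at the same places was 225, 200, 201, 285 and 152 bp, and at the last of them the peak stopped 27 bp short. The other protein-coding genes with peaks of both lists had a median reach of 713 bp for SOX4, with quartiles of 663 and 766 bp over 213 spanned ends. For STAT6 the median was 233 bp, with quartiles of 168 and 301 bp over 170 ends. A SOX4 peak spanned each end in 38.8% of the 206 genes with both lists, and among the members in P2RX2.

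The share of bases covered by peaks fell with the length of the 3 genes. SOX4 peaks covered 100% of P2RX2, 38.7% of P2RX3 and 22.1% of P2RX5, and STAT6 peaks covered 100%, 24.0% and 13.6%. The median over the 206 genes with both lists was 20.5% for SOX4 and 9.25% for STAT6, and at least 30% was covered by SOX4 peaks in 42.7% of them. Over all 7 members the median was 0% in both lists, since 4 had no peak. The stretches of the length of each gene that began 5000 bp beyond its ends were covered to 0% by either list at all 7 members. The peaks per 10 kb were 2.77 at P2RX2 in both lists, 1.10 of SOX4 and 1.92 of STAT6 at P2RX3, and 0.988 of each at P2RX5. At P2RX2 the value rests on 1 peak of each list, which was wider than the gene, and does not show denser sites.

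**Figure D3:**
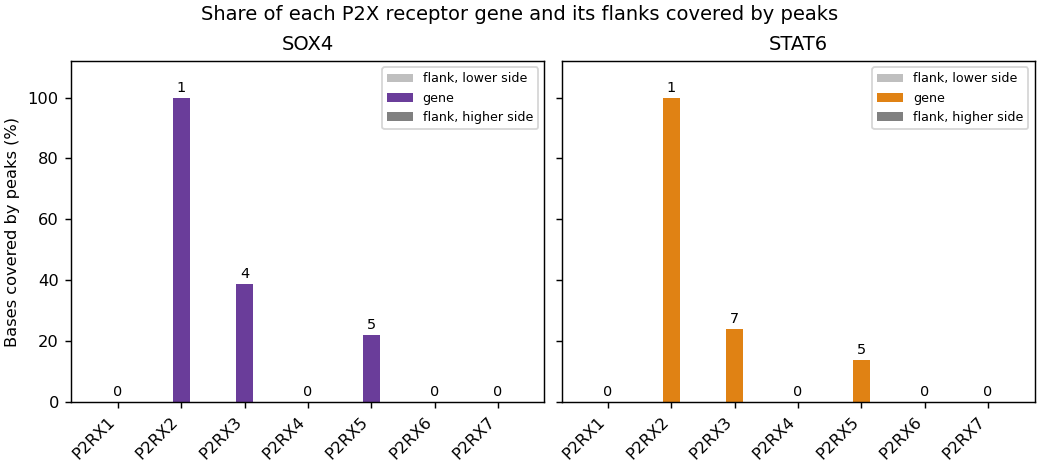
Share of the bases of each P2X receptor gene covered by SOX4 peaks (left) and STAT6 peaks (right), in percent, with the flanks of equal length in grey. The number above a bar counts the peaks. The bars stand at P2RX2, P2RX3 and P2RX5, and all flanks are at 0%.

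The SOX4 peaks of the family ranked high in their list, and most of the STAT6 peaks stood above the median of theirs. The 10 SOX4 peaks had fold enrichments of 56.7 to 212 with a median of 107, and all of them stood above the list median of 5.88. Among the highest 10% of the list were 8 of the 10. The 13 STAT6 peaks had fold enrichments of 4.36 to 20.2 with a median of 11.1. Of these, 12 stood above the list median of 7.27 and 2 were among the highest 10%. Over the whole lists, SOX4 peaks that overlapped a STAT6 peak had a median of 95.5, and STAT6 peaks that overlapped a SOX4 peak 8.54. The family medians of 107 and 11.1 stand beside these values of shared sites in general. Both fold enrichments rest on the same IgG library and are not independent at a site.

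**Figure D4:**
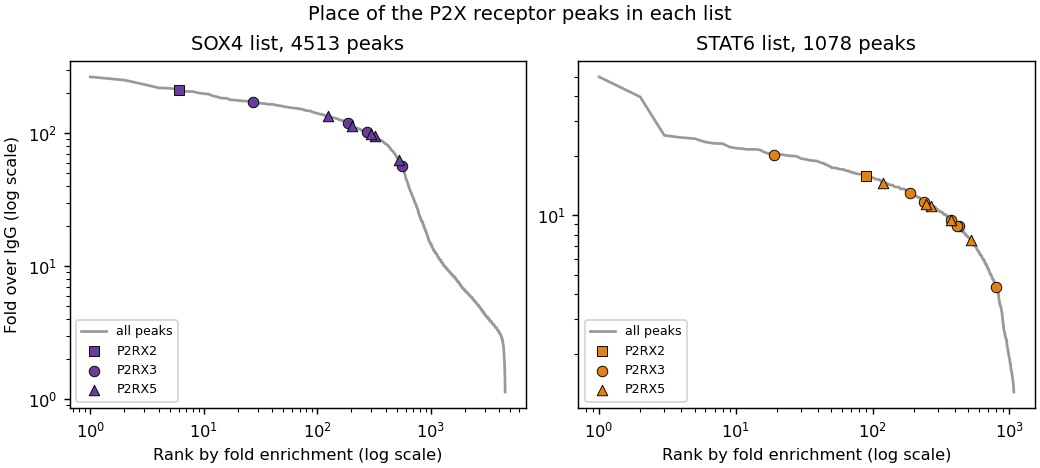
Fold enrichment over IgG against rank in the SOX4 list (left) and the STAT6 list (right), both axes on log scales, with the whole list as a grey line and the peaks of P2RX2, P2RX3 and P2RX5 as symbols. The SOX4 symbols lie between ranks 6 and 557 of 4513, and the STAT6 symbols between ranks 19 and 799 of 1078.

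The nearest peak outside a member was 43.5 kb or more away, at members with and without peaks alike. From P2RX2 the next SOX4 peak was 187 kb away and the next STAT6 peak 22785 kb. From P2RX3 these distances were 330 kb and 4533 kb. P2RX7 and P2RX4 are neighbours on chromosome 12, 22.1 kb apart, from 121132876 to 121188032 and from 121210129 to 121234106. The nearest SOX4 peak was 1259 kb from P2RX7 and 1213 kb from P2RX4, from 122446714 to 122447631 with a fold enrichment of 7.65. The nearest STAT6 peak, at the channel gene TRPV4, was 11299 kb from P2RX7 and 11377 kb from P2RX4. Both genes were thus far from any site of either list, although P2RX2 on the same chromosome held the highest SOX4 peak of the family.

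P2RX1, on chromosome 17 from 3896592 to 3916465, is 173 kb from P2RX5. Its nearest peaks in both lists were the fifth peaks of P2RX5, 199.7 kb away for SOX4 and 200.2 kb for STAT6. Thus P2RX5 held 5 peaks of each list and P2RX1 on the same chromosome none. The nearest peaks on the other side of P2RX5 were 63.1 kb from P2RX5 for SOX4 and 63.5 kb for STAT6, at TRPV1, the capsaicin receptor, and SHPK. P2RX6, on chromosome 22 from 21009799 to 21028008, had a SOX4 peak 43.5 kb away with a fold enrichment of 7.84.

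The protein-coding genes next to a member were examined too. The nearest gene on each side and the overlapping ITGAE made 13 genes outside the family, and 1 of them, POLE beside P2RX2, held a peak, beside 6.35% of all protein-coding genes with a SOX4 peak. That peak was the SOX4 peak of P2RX2, since POLE, a DNA polymerase gene, lies 1374 bp from the end of P2RX2. SSRP1, 58 bp from the outermost record of P2RX3, and HASPIN, 68 bp from P2RX5, held none.

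Other genes listed under ATP and adenosine signalling carried almost no peaks. These were 32 genes, among them 10 G protein-coupled receptors with P2RY symbols, 4 adenosine receptors and adenosine deaminase. The rest were 11 genes listed as enzymes that break down extracellular nucleotides and 6 release channels and transporters. None of the 32 genes held a STAT6 peak and 1 held a SOX4 peak. It was NT5E, the enzyme that makes adenosine from AMP, with a peak from 85486007 to 85486866 on chromosome 6. Its fold enrichment of 8.09, rank 1647, was below that of each SOX4 peak at the P2X genes. Over all protein-coding genes the shares were 6.35% for SOX4 and 1.08% for STAT6, so that a list of this size holds few peaks at the background share too.

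In 3 other families of cation channels, peaks of both lists were held by 4 of 5 acid-sensing channel genes (ASIC), 6 of 15 two-pore potassium channel genes (KCNK) and 2 of 6 vanilloid channel genes (TRPV). For the P2X genes it was 3 of 7, and over all protein-coding genes 1.03%. These families, the P2X genes included, were chosen with earlier results of these data known, so their shares say nothing of cation channels in general. The differences between families were not tested. Among the genes whose covered shares were most like those of P2RX3, by the distance between the pairs of SOX4 and STAT6 shares in percentage points, were ASIC4 at 2.39, CYP2B6 at 3.37, HLA-DPA1 at 3.53 and TRPV4 at 4.23. They were taken from the genes with both lists outside the family, and the likeness rests on 2 libraries. ASIC4 held 3 SOX4 and 5 STAT6 peaks over 31680 bp, the nearest of these to P2RX3 in length.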

How the data were processed

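The authors performed CUT&RUN on Hep3B cells, cutting DNA at antibody-bound sites with pAG-MNase. Per the labels, Partek and BWA were used with genome build hg38. Settings, the peak caller and its threshold are not given in the sources used here. The authors deposited a peak list each for SOX4 and STAT6, called against IgG per the peak names, giving position and summit of each peak, its enrichment as a ratio to IgG, the p and q on a −log10 scale and a whole-number score. Only position, ratio and −log10 q were used. Depth is unknown.

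Genes were taken from the RefSeq table of GRCh38.p14, and promoters and strand from its promoter table, which lists P2RX3, P2RX4 and P2RX7. Exons were not analysed here. Positions are 1-based. Peaks were paired when they overlapped by at least 1 bp, and covered bases were counted on the union of peaks. The procedure was tested on simulated data with 200 genes and returned the planted counts, coverage and pairs. All planted peaks lay inside genes. Peaks across a gene end, peaks wider than a gene and SOX4 peaks holding several STAT6 peaks were not simulated. With 1 library per antibody no test was run. All 7 members, neighbours on each side, pathway genes with a peak and the 5 genes most like the member with most peaks were to be named, of which some items are not reported here. The members and lists were chosen with earlier results of these data known. The search for motifs, the reach of peaks past gene ends and the border around STAT6 peaks were added after seeing the data. Python 3.11.15, numpy 2.4.6, pandas 2.3.3 and matplotlib 3.10.9 were used.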

Additional observations from a re-analysis of the deposited data

How the results depend on the processing

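For 6 counts 32 alternatives were run, of which 30 stayed within a factor of 1.5 and 2 moved. With a −log10 q of at least 5, no margin, a margin of 5000 bp or assignment by the summit, all counts were as reported. A fold enrichment of at least 5 left 12 STAT6 peaks, all 12 overlapping a SOX4 peak. At the members the lowest −log10 q was 5.14, the lowest SOX4 fold enrichment was 56.7 and each summit lay inside the gene. The nearest peak outside a member was 43.5 kb away. These alternatives could thus hardly change the counts and say little of stability. The number of STAT6 peaks sharing a site with SOX4, 13 in the report, fell to 4 when 50% of each peak had to be covered and to 8 when summits had to lie within 200 bp. Both definitions are stricter by construction. The median covered share over the 7 members is 0% whenever 4 of them hold no peak, so its 6 alternatives say nothing of stability and are not counted here. No paired analysis was possible because there was 1 library per antibody. With unknown depth, a member without a peak may lie below the threshold of the lists, and the difference between the lists in fold enrichment and width cannot be told apart from depth.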
